A study of Mus musculus with 13 samples.

Results

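The genes described here are 40 genes of cell division and DNA replication, taken by symbol from a given list, of the 32285 genes counted in each library. They were measured by droplet single-cell RNA sequencing in mammary fibroblasts from 13 libraries in 9 groups. The question was how far these genes, and the S-phase genes against the G2/M genes among them, differed between developmental stages of the gland, with MPA+E, and between hyperplasia and tumour. The puberty (4 weeks), adult (virgin, 9 weeks), pregnancy (day 14.5), lactation (day 10) and involution (day 4) groups held 1 library each, all from wildtype C57BL/6 females. The placebo and MPA+E groups held 2 libraries each, from wildtype C57BL/6 females of 9 weeks given a placebo or MPA+E, that is medroxyprogesterone acetate with estradiol. These 9 libraries were made from stromal cells sorted as negative for lineage markers and for CD24, from 2 females per stage. For placebo and MPA+E the study's methods give 2 females per replicate, and the labels give 2 for each condition. The hyperplasia and tumour groups held 2 libraries each, from raGFP-Wnt1 females with the genotype Pdgfra-GFP KI/+ MMTV-Wnt1 T/+ on a mixed background of C57BL/6 and FVB. MMTV-Wnt1 drives Wnt1 in the mammary epithelium, and the fibroblasts were sorted as GFP-positive, so they are cells in which the Pdgfra reporter was active. Hyperplasia 1 and tumour 1 came from 1 mouse of 45 weeks, and hyperplasia 2 and tumour 2 from another of 17 weeks.

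A dividing cell first raises D-type cyclins, then E-type cyclins, and then makes the helicase, the sliding clamp and the nucleotides with which it copies its DNA in S phase. Genes of chromosome condensation, the spindle and its checkpoint follow in G2 and M and are largely shut off in resting cells, which is why they serve as markers of division. Fibroblasts of the adult mammary gland divide rarely, whereas the gland itself grows at puberty and in pregnancy. Of the 40 genes, 15 were placed in an S list and 21 in a G2/M list, and the D-type cyclins Ccnd1, Ccnd2 and Ccnd3 and the tubulin-binding protein Stmn1 were placed in neither.

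The libraries held 5230 to 14424 barcodes, of which 4236 to 11951 passed the fibroblast rule (at least 50 UMIs of Dcn, Lum and Col1a2 per 10000 and no UMI of markers of 6 other cell types). Fibroblast UMIs per library came to 47521842 to 102522735, with a median per cell from 3990 in pregnancy to 20256 in tumour 2. The 6 fibroblast markers summed to 23115 to 42033 CPM (UMIs of a gene scaled to the total fibroblast UMIs of its library), and epithelial markers to 0.821 to 49.6 CPM, highest in pregnancy, with Epcam at 0 by the rule. At most 34 barcodes were shared by any pair of libraries.

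The promoters of these genes carry sequence elements that differ between the S and the G2/M list, and 6 are shown because they belong to genes that moved with their list or apart from it. Of the 40 genes, 30 matched an entry of 300 bases in the table of RefSeq promoters used here (GRCm38.p6); Tpx2, Ccnd1, Stmn1, Gins2, Foxm1, Mcm4, Ccne2, Ccna2, Aurkb and Ccnd2 were not matched. Both strands were searched for E2F sites (TTTCCCGC, TTTCGCGC, TTTGCCGC or TTTGGCGC), for the cell cycle homology element that the MuvB complexes bind (TTTGAA or TTCGAA) and for the CCAAT box of NF-Y (CCAAT). E2F letters stood in 5 of 12 S promoters (Mcm3, Mcm5, Mcm6, Mcm7 and Pclaf), in 1 of 17 G2/M promoters (Cdk1) and in 2.61% of the promoters of all 27025 genes. The cell cycle homology letters stood in 15 of 17 G2/M promoters, in 2 of 12 S promoters (Mcm2 and Mcm7) and in 21.7% of all promoters. CCAAT stood in 16 of 17 G2/M promoters, in 9 of 12 S promoters and in 41.1% of all promoters. The homology letters and CCAAT stood together in 15 of 17 G2/M promoters, in 2 of 12 S promoters and in 9.65% of all promoters. In the 220 bases printed below, 200 before and 20 after the start of the gene, capitals mark these letters on either strand, and neighbouring E2F matches on opposite strands overlap in Mcm5 and Mcm6.
Mcm5 promoter, chr8:75109309-75109528, plus strand: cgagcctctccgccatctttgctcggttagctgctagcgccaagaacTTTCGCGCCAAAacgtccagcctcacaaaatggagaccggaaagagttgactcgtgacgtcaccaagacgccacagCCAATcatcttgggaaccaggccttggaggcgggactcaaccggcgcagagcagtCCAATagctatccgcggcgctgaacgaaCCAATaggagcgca
Mcm6 promoter, chr1:128359686-128359905, minus strand: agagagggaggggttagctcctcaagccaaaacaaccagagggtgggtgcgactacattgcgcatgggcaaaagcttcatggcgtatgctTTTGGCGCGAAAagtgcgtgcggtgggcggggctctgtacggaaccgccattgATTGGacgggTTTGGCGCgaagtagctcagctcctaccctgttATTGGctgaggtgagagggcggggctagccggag
Pcna promoter, chr2:132253161-132253380, minus strand: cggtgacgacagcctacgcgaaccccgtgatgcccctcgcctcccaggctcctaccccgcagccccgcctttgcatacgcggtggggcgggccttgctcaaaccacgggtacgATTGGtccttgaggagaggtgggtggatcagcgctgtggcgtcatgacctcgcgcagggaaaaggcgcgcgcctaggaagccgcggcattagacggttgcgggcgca
Ccnb2 promoter, chr9:70421535-70421754, minus strand: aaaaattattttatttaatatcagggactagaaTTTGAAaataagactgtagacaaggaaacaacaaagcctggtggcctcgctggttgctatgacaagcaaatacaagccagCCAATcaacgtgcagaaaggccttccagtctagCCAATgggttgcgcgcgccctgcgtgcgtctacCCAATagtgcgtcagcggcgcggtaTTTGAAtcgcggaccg
Cdc20 promoter, chr4:118437324-118437543, minus strand: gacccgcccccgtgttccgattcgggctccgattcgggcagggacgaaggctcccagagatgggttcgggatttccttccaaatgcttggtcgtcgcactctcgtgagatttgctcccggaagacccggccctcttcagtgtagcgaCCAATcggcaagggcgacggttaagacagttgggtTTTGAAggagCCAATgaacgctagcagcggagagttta
Kif11 promoter, chr19:37376182-37376401, plus strand: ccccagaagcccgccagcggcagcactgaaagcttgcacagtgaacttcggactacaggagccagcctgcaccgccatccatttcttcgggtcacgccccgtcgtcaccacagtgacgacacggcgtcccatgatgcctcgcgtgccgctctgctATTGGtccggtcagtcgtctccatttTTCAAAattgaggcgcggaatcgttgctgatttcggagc
Mcm5 and Mcm6 encode helicase subunits and hold E2F and CCAAT letters, Ccnb2 and Cdc20 act in mitosis and hold homology and CCAAT letters, and so does the spindle motor gene Kif11. The clamp gene Pcna held CCAAT letters alone in this window. E2F letters were also absent from the promoters of Mcm2, Rrm1, Rrm2, Tyms and Dut, which unlike Pcna were called higher in the tumours below. Whether these letters bear on the levels was not tested.

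Across the 13 libraries, 36 of the 40 genes had their highest level in tumour 2, and the exceptions were Pcna (hyperplasia 1), Kif11 and Ccnd3 (puberty) and Ccnd2 (adult). Their lowest levels lay in hyperplasia 2 for 20 genes and in lactation for 8. The summed level of the 21 G2/M genes was 159, 54.8, 115, 52.9 and 65.2 CPM in the stages, always named in the order puberty, adult, pregnancy, lactation, involution. It was 88.6 and 64.7 CPM in the placebo pair, 83.7 and 79.4 in the MPA+E pair, 70.6 and 47.8 in hyperplasia, and 238 and 485 in the tumours. The summed level of the 15 S genes moved over a much narrower range, from 147 CPM in involution to 349 in tumour 2.

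**Figure D1:**
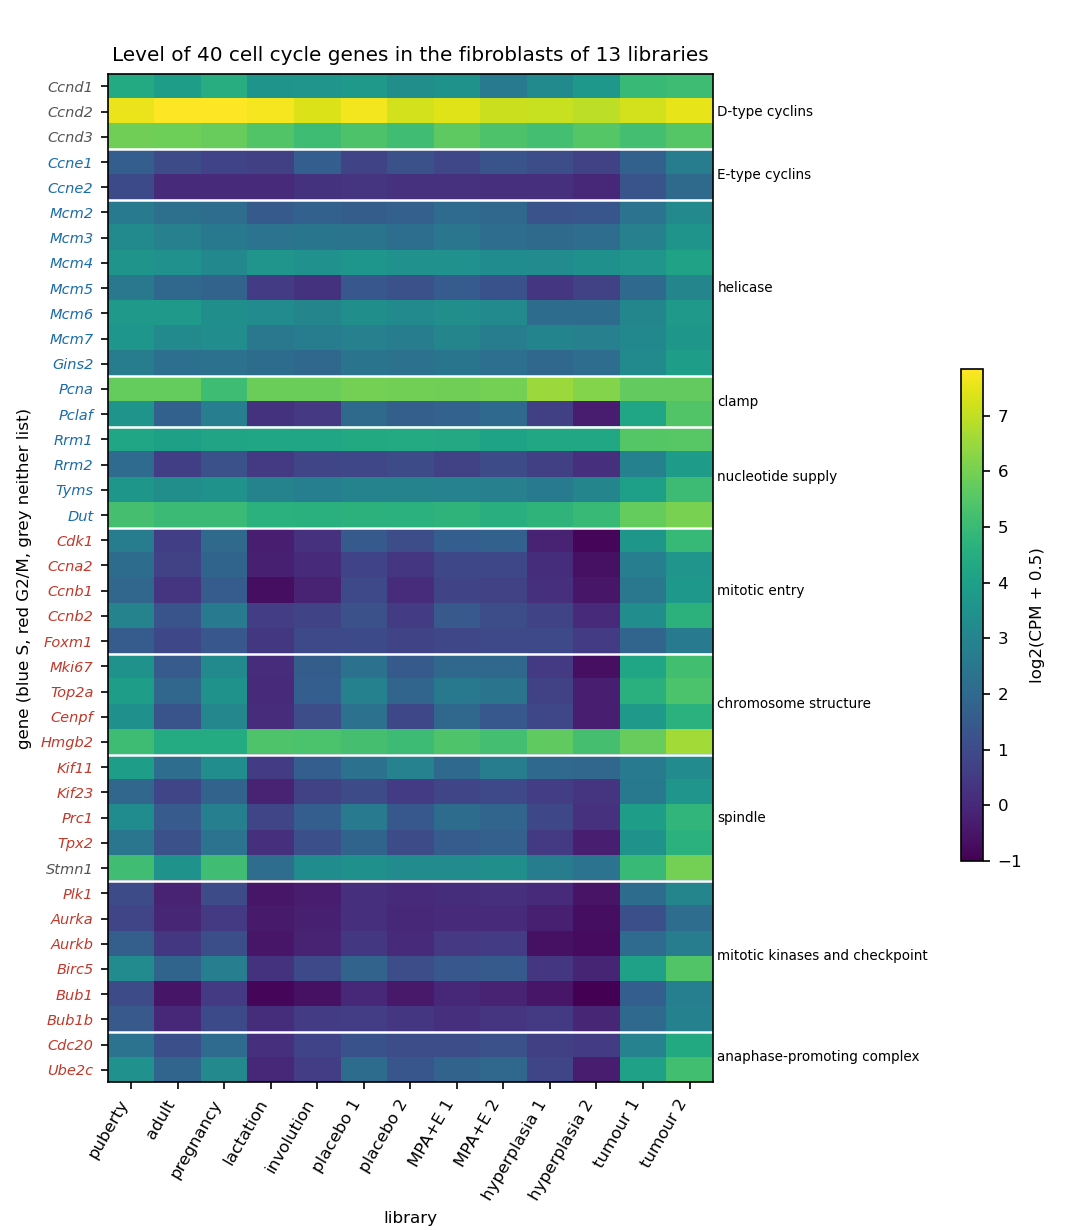
Level of each of the 40 genes (rows, grouped by role) in each of the 13 libraries (columns), as colour on a scale of log2(CPM + 0.5). Most genes of mitotic entry, chromosome structure, spindle and mitotic kinases are brightest (highest) in the tumours, intermediate in puberty and pregnancy, and among the darkest in lactation and hyperplasia 2; Kif11 is highest in puberty (14.9 CPM), Stmn1 is higher in puberty (34.8 CPM) than in tumour 1, and Hmgb2 is lowest in the adult (20.98 CPM). By contrast, Ccnd2, Ccnd3, Mcm4, Mcm7 and Pcna vary by 1.81 to 2.68 times over the libraries.

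Among the stages, the G2/M genes were high in puberty and pregnancy and low in lactation. Each stage had 1 library, so ratios to the adult library are given with exact 95% intervals that cover counting error only, and no test could be run. In puberty, 35 of the 40 genes had an interval above 1, with 20.1% of 12508 genes at 1 CPM or more as background, and 1 (Ccnd2) had an interval below 1, against 42.1% of genes. In pregnancy, 26 lay above 1 (background 24.8%) and 5 below (30.6%). In lactation, 4 lay above 1 (background 45.0%) and 30 below (35.0%), and in involution, 5 lay above (37.5%) and 23 below (42.1%). Over the 40 genes the median ratios to the adult were 2.75, 2.00, 0.541 and 0.765 for the other stages in their order, where those of all genes were 0.942, 0.987, 1.05 and 0.976. The placebo libraries give a measure of the spread between libraries of the same age. Their levels differed by 1.25 times at the median of the 40 genes and by 3.31 times at most (Cenpf). The spread was wider for G2/M genes such as Mki67 (1.89 times), Top2a (2.16) and Ccnb1 (2.41) than for S genes such as Pcna (1.02). The 4 genes that differed by more than 2 times were all of the G2/M list.

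Mki67, which coats mitotic chromosomes, stood at 11.0, 2.37, 8.73, 0.587 and 2.57 CPM in stage order. Puberty and pregnancy thus stood above the other stages, with ratios to the adult of 4.62 (3.89 to 5.52) and 3.68 (3.08 to 4.42), and lactation stood below it at 0.248 (0.169 to 0.355). Top2a, the topoisomerase that untangles replicated chromosomes, stood at 14.9, 3.28, 10.8, 0.540 and 2.64 CPM. Ccnb1, the cyclin that drives entry into mitosis, had 3.28, 0.772, 2.46, 0.127 and 0.390 CPM. Both followed the same order as Mki67 except that involution lay below the adult. Among the 21 G2/M genes the ratio of puberty to adult ranged from 1.60 (Hmgb2) to 7.48 (Bub1, a kinase of the spindle checkpoint, 4.25 to 14.0), and all 21 intervals lay above 1. In pregnancy 20 of the 21 lay above 1. In lactation 17 lay below 1, the lowest being Ube2c, the ubiquitin-conjugating enzyme of the anaphase-promoting complex, at 0.158 (0.106 to 0.230).

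Hmgb2 went against its list. This chromatin protein stood at 33.5, 20.98, 21.04, 41.9 and 40.2 CPM in stage order, so lactation and involution were the highest stages, at 2.00 (1.88 to 2.13) and 1.92 (1.80 to 2.04) times the adult. Since Hmgb2 alone gave most of the G2/M UMIs in lactation, the summed G2/M level of lactation over adult was 0.967 with it and 0.326 (0.299 to 0.355) without it, and that of involution turned from 1.19 to 0.742 (0.698 to 0.788). Bub1b, a G2/M gene at 0.501 CPM in the adult, was not lower in these stages either. Its ratios to the adult were 1.24 (0.767 to 1.99) in lactation and 1.99 (1.32 to 3.04) in involution.

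The S genes changed less between stages, and members with a like role differed. Mcm2, a subunit of the replicative helicase, stood at 5.79, 4.32, 3.96, 2.32 and 2.84 CPM in stage order. Mcm5, from the same helicase, had 5.29, 3.51, 2.99, 0.936 and 0.727 CPM, so it was low after pregnancy, at 0.267 (0.198 to 0.355) of the adult in lactation and 0.207 (0.152 to 0.279) in involution. Rrm2, the regulated subunit of ribonucleotide reductase, had 3.74, 1.04, 1.81, 0.920 and 1.28 CPM, and Pclaf, which binds the clamp, had 11.3, 2.87, 6.29, 0.730 and 0.888 CPM. These genes had the highest ratios of the S list in puberty, at 3.58 (2.73 to 4.74) for Rrm2 and 3.95 (3.37 to 4.65) for Pclaf, while the median S gene stood at 1.34. Pcna, the clamp itself, had 53.4, 53.1, 33.5, 56.8 and 56.7 CPM, and pregnancy was its lowest stage at 0.631 (0.595 to 0.669) of the adult. In pregnancy 4 of the 15 S genes (Pclaf, Rrm1, Rrm2 and Tyms) lay above 1, and 4 (Mcm3, Mcm4, Mcm6 and Pcna) lay below, shares near those of all genes (24.8% and 30.6%).

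The genes of neither list were divided. Stmn1 stood at 34.8, 10.9, 34.7, 4.02 and 9.32 CPM in stage order, which followed the G2/M genes. Ccnd1 had 20.4, 15.1, 22.2, 11.3 and 11.7 CPM, and its ratios to the adult were 1.36 (1.24 to 1.48) in puberty and 1.47 (1.35 to 1.60) in pregnancy. Ccnd2 had 192, 228, 225, 208 and 166 CPM, and Ccnd3 had 60.1, 58.3, 55.0, 43.1 and 33.2 CPM, so their highest stage was 1.37 and 1.81 times their lowest.

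The S to G2/M ratio, the log2 of summed S UMIs over summed G2/M UMIs, was 0.35, 1.61, 0.37, 1.48 and 1.17 in stage order. It was 0.90 and 1.30 in placebo and 0.96 and 0.96 in MPA+E. It was 1.31 and 1.79 in hyperplasia and 0.05 and -0.47 in the tumours. The G2/M sum is the denominator and the S sum moved less, so low ratios where G2/M genes were high follow largely by construction. Puberty and pregnancy lay below the adult by differences of -1.26 and -1.24 on the log2 scale, and the tumours below the hyperplasia libraries by -1.76, against a pooled SD of 0.36 between libraries of a group. MPA+E and placebo differed by -0.14, which was less than the pooled SD of 0.20. The 3 genes Hmgb2, Dut and Pcna held many of the UMIs of these sums. In puberty most of their UMIs lay outside the cells with at least 3 G2/M genes that are counted below. Without them lactation stood at 2.59 and hyperplasia 2 at 2.56, above all other libraries, and the tumours at -0.37 and -0.75.

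**Figure D2:**
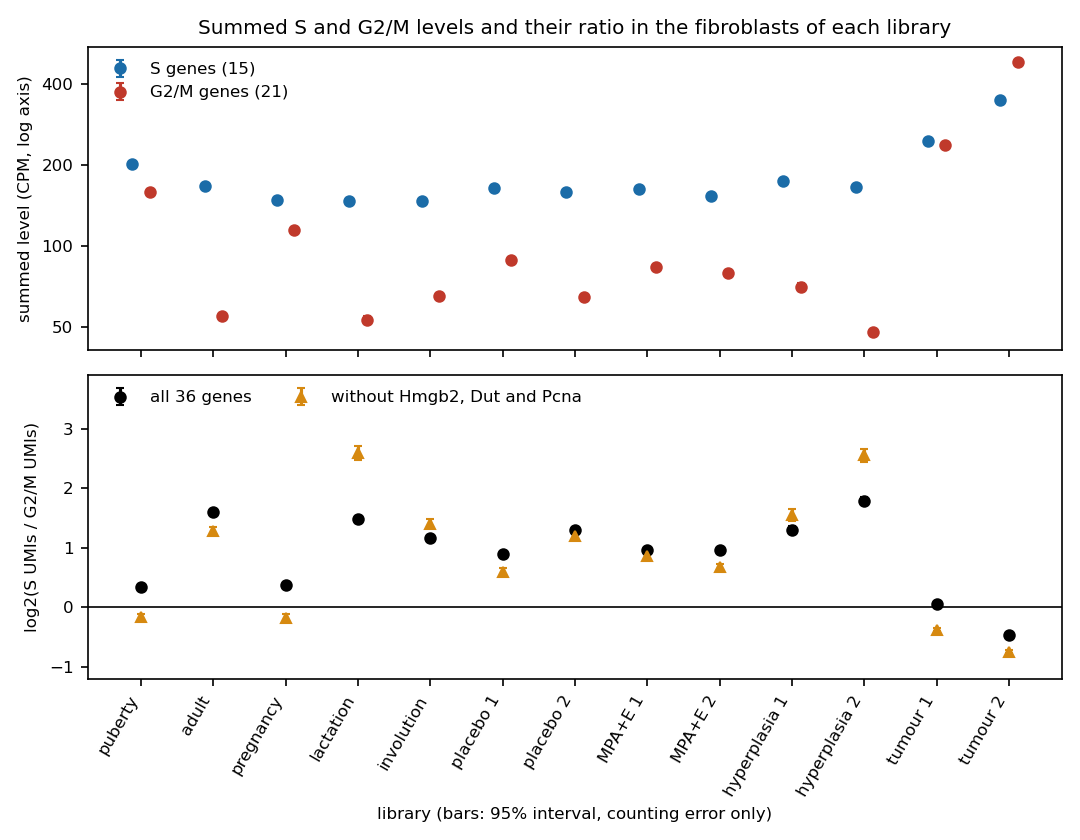
Summed level of the 15 S genes and of the 21 G2/M genes (CPM, log axis) in each library, and the log2 ratio of S to G2/M UMIs with 95% counting intervals. The S level stays between 147 and 349 CPM, while the G2/M level runs from 47.8 CPM in hyperplasia 2 to 485 in tumour 2, and the ratio is below 0.5 only in puberty, pregnancy and the tumours.

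In sums over a library, a change in the number of cells that express a gene and a change in RNA per cell cannot be told apart, so the genes were also counted cell by cell. Each cell was thinned to 3000 UMIs, and cells that held at least 3 different G2/M genes were counted. Puberty had a share of 1.72% (105 of 6118 cells, exact 95% interval 1.41 to 2.07) and the adult one of 0.321% (33 of 10268). The later stages had 1.16% (99 of 8501), 0.0371% (3 of 8086) and 0.225% (21 of 9344). The share in puberty was 5.34 times (3.58 to 8.15) and that in pregnancy 3.62 times (2.42 to 5.55) the adult share, and lactation lay at 0.115 times (0.0227 to 0.368). Involution lay at 0.699 times (0.384 to 1.25), an interval that holds 1. With 1 library per stage, these intervals cover counting error over cells only, and no difference between stages was tested. The tumours reached 2.80% (238 of 8497 cells) and 7.53% (302 of 4013), while the hyperplasia libraries held 0.0854% (5 of 5858) and 0 of 7530 cells, for which the exact upper 95% limit is 0.0490%. The placebo shares were 0.304% and 0.240%, and the MPA+E shares 0.463% and 0.546%. The MPA+E shares lay above the placebo shares with no overlap, by 0.233 percentage points on average, and by 0.133 with a cut of 5 genes and 0.142 when cells were thinned to 2000 UMIs. With 2 libraries against 2, an exact permutation p under 0.05 cannot be reached, and the difference was not tested.

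**Figure D3:**
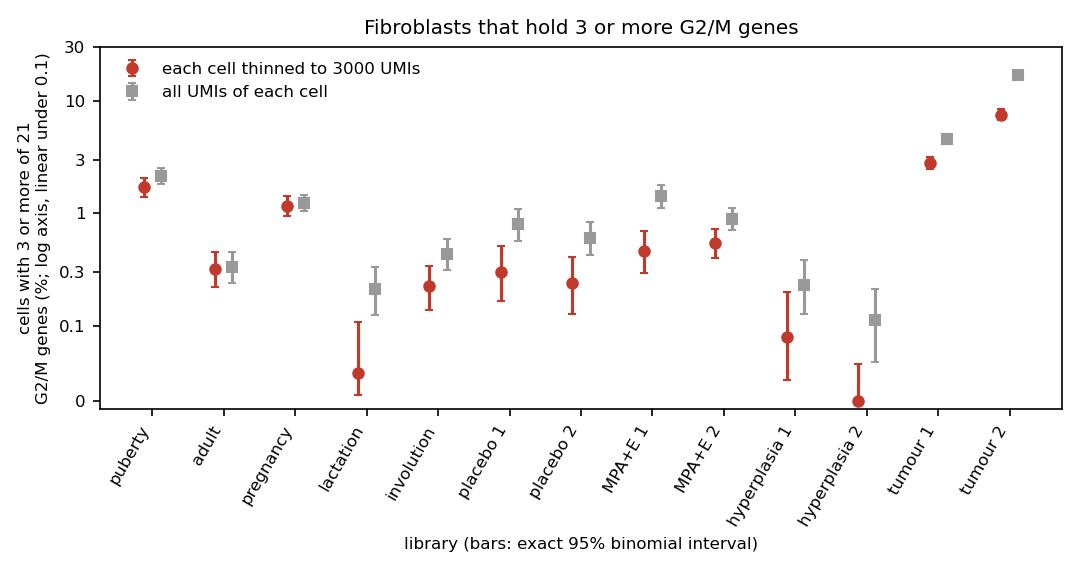
Percentage of fibroblasts with at least 3 of the 21 G2/M genes, after thinning to 3000 UMIs per cell, for each library (log axis), with exact 95% binomial intervals. Tumour 2 is highest at 7.53%, followed by tumour 1, puberty and pregnancy, and lactation and the hyperplasia libraries are lowest.

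The cut at 3 genes is a range and not a cell type. In puberty 41 cells held 2 of the genes, 17 held 3, 10 held 4 and 78 held 5 or more, so most counted cells lay well inside it. In lactation 35 cells held 2 and only 3 held more. Cells under 3000 UMIs were left out, which removed 26.1% of the fibroblasts in pregnancy and 3.08% to 14.1% elsewhere, and without thinning the shares were 2.15%, 0.335%, 1.24%, 0.213% and 0.436% in stage order, 4.58% and 16.9% in the tumours and 0.232% and 0.113% in hyperplasia. Lactation was then nearer to the adult, and involution above it. The counted cells had more UMIs before thinning than the others (medians of 10253 against 7206 in puberty, 6221 against 4486 in pregnancy and 28320 against 20499 in tumour 2). Scrublet put 15.2% of them among the doublets in puberty and 21.2% in pregnancy, against 6.92% and 11.99% of the other cells, and 15.5% and 5.96% in tumour 1 and 2, against 7.74% and 3.37%, whereas in the adult it was 9.09% against 11.2%. The part of doublets in these shares was not tested beyond removing the called cells, which left shares of 1.57%, 1.04%, 2.57% and 7.34% in puberty, pregnancy and the tumours. Sox10-positive cells with few fibroblast UMIs, the only other cells set aside for comparison, numbered 169 in pregnancy, of which 14.2% passed the cut at a median of 4719 UMIs, and 4 to 121 elsewhere, and they were not used as a background level.

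With Mki67 left out of the cut, a Mki67 UMI was found in 64.6%, 65.6% and 64.1% of the counted cells of the puberty, adult and pregnancy libraries, in 54.8% in MPA+E 2, and in 57.7% and 58.7% in the tumours; the other libraries had 21 such cells or fewer. The cut itself selects cells that hold G2/M genes, so these shares are a description. In the cells outside the cut Mki67 stood at 1.27, 0.195, 1.31, 0.529, 1.41 and 4.74 CPM in the same order.

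Where each gene's UMIs lay differed between roles. The counted cells were chosen by their G2/M genes, so higher shares for G2/M than for S genes follow in part from the cut. By the same cut on S genes, 150 cells of puberty passed, and 89 of them did not pass the G2/M cut. The mitotic genes were concentrated: in puberty the counted cells held 85.9% of the UMIs of Mki67, 95.6% of Ccnb1, 92.6% of Ube2c and 83.5% of Top2a, and in the tumours 87.7% and 85.0% of Mki67. Rrm2 and Stmn1 lay between, with 59.6% and 62.5% in puberty. The helicase genes lay mostly elsewhere, with 14.9% of Mcm2 and 27.5% of Mcm5 in puberty, and so did Pcna (8.72%), Dut, which clears dUTP from the nucleotide pool (11.3%), and Rrm1, the large subunit of ribonucleotide reductase (21.7%). Each of these shares was still above the 1.72% of puberty cells that were counted. The D-type cyclins had low shares: the counted cells were 1.72% of the puberty cells, all at the same depth, and held 1.34% of Ccnd1, 1.33% of Ccnd2 and 2.84% of Ccnd3. Hmgb2 was split, with 28.0% in puberty, 0.701% in lactation and 59.8% in tumour 2.

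**Figure D4:**
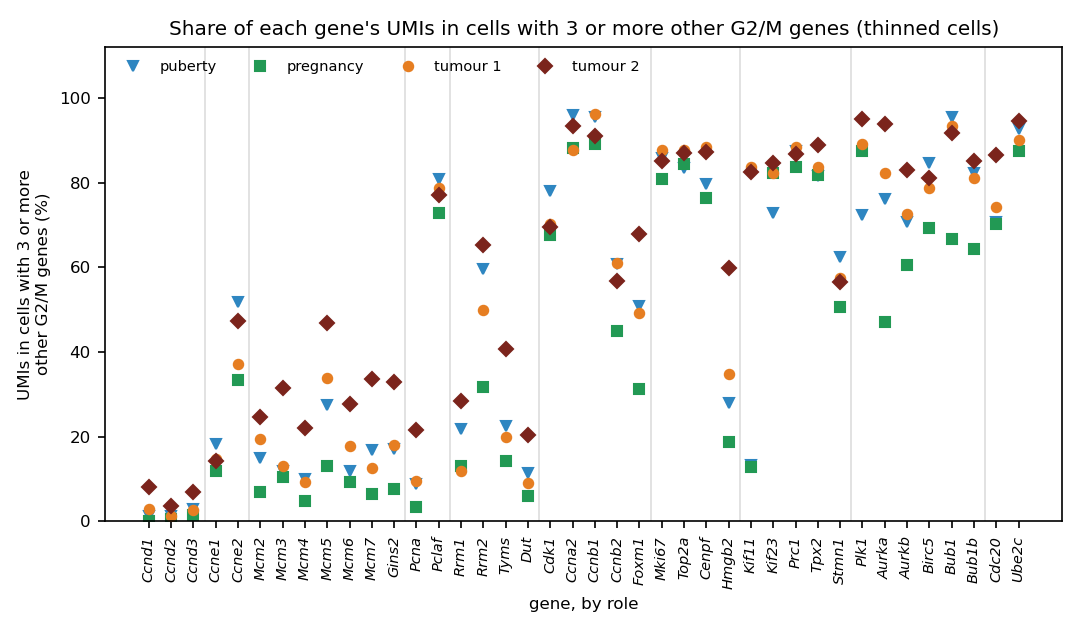
Share of each gene's UMIs (per cent) that lay in cells with at least 3 other G2/M genes, in puberty, pregnancy and the tumours, from cells thinned to 3000 UMIs. Mitotic genes lie mostly above 60%, helicase genes, Pcna and Dut below 50%, the D-type cyclins below 10%, and Kif11 lies near 13% in puberty and pregnancy but above 80% in the tumours.

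Kif11 stood apart from the other mitotic genes. It encodes the motor that pushes the spindle poles apart and is a usual marker of mitosis, and its level was 14.9, 3.94, 9.49, 0.936 and 2.62 CPM in stage order. Only 13.4% of its UMIs in puberty and 12.7% in pregnancy lay in the counted cells, against 83.7% and 82.6% in the tumours, where Prc1, a spindle gene of the same list, had 87.5%, 83.6%, 88.4% and 86.7%. In cells outside the cut Kif11 stood at 12.5, 2.90, 7.06, 0.948 and 2.07 CPM in stage order, at 2.96 and 3.67 in hyperplasia, and at 0.646 and 1.35 in the tumours. Without thinning, 297 fibroblasts of puberty held Kif11 and fewer than 3 other G2/M genes, and 71 of these had 3 or more Kif11 UMIs, up to 9. For Prc1 the numbers were 55 cells and 0. Such Kif11 cells were found in all 13 libraries. They were 4.17% of the fibroblasts in puberty, 4.18% in placebo 2, 3.46% in MPA+E 2, 1.38% in the adult and 1.85% in pregnancy. Hyperplasia had 2.15% and 2.13%, and the lowest shares were in tumour 1 (0.404%), lactation (0.532%) and tumour 2 (0.708%). In placebo 2 such a cell held up to 23 Kif11 UMIs. The Kif11 cells had more UMIs than the others in 12 of the 13 libraries (median 8248 against 6553 in puberty), and fewer in tumour 1 (9590 against 10602). Kif11 shares no exon on its own strand with another annotated gene, and whether these UMIs come from its usual transcript was not tested.

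In the fit of all 4 libraries without a replicate block, MPA+E moved none of the 40 genes past the threshold. No gene had an adjusted p under 0.05 by the quasi-likelihood test of edgeR, where 4.33% of the 15642 genes tested did, and none had an unadjusted p under 0.05, against 18.5% of genes. DESeq2 also called 0 of the 40, and 1358 of all 15642 genes. In limma-voom 0 were called and 1 had an unadjusted p under 0.05, where 679 and 2882 of all genes did. With the replicate number as a block, edgeR called 1 of the 40, Ccnd1, lower, and 2451 of all genes. All MPA+E libraries lay above the placebo pair for 4 genes (Mcm2, Cdk1, Ccna2 and Aurkb; 21.2% of genes did so) and below it for 5 (Ccne2, Mcm4, Rrm1, Tyms and Bub1b; 22.4%), and the median log2 fold change of the 40 genes was 0.01, as was that of all genes. Mki67 had 4.45 and 2.36 CPM in placebo and 3.33 and 3.33 in MPA+E, which differed by -0.00 ± 0.28 on the log2 scale (SE, adjusted p = 0.999). Top2a had 6.82 and 3.16 CPM against 5.49 and 4.72 (0.06 ± 0.33), and Ccnb1 1.44 and 0.596 against 1.25 and 1.12 (0.25 ± 0.40). The groups overlapped for these mitotic genes because the placebo libraries were far apart.

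In the fit without a block, no S gene or D-type cyclin was called either. Mcm2 had 2.56 and 2.80 CPM in placebo and 3.76 and 3.40 in MPA+E (0.42 ± 0.17, adjusted p = 0.277), and Mcm5 had 2.14 and 1.76 against 2.47 and 1.82 (0.14 ± 0.21). Pcna had 62.5 and 61.0 against 59.5 and 62.3 CPM (-0.01 ± 0.10), Rrm2 1.32 and 1.53 against 1.11 and 1.51 (-0.10 ± 0.28), and Stmn1 10.3 and 9.08 against 9.07 and 9.96 (-0.01 ± 0.12). Of these only Mcm2 did not overlap between the groups. Ccnd1, which couples growth signals to the cell cycle, had 13.4 and 9.85 CPM in placebo and 11.0 and 5.93 in MPA+E (-0.45 ± 0.28, adjusted p = 0.499). Without MPA+E 1 it was called lower, at -0.91 ± 0.18 with an adjusted p of 0.0357, from the quasi-likelihood test, in which MPA+E 2 is the only treated library and is assumed to vary like the placebo pair. Ccnd2 had 203 and 151 CPM against 169 and 141 (-0.18 ± 0.14), and Ccnd3 had 41.2 and 34.3 against 49.8 and 40.4 (0.27 ± 0.11, adjusted p = 0.301). Beside these values, the 5 endothelial markers summed to 14.6 CPM in each placebo library and to 43.9 and 45.8 in MPA+E. Nearly all of this was Kdr (14.2 and 14.1 against 43.2 and 45.2). Vwf (0.0720 and 0.0555 against 0.310 and 0.285) and Emcn (0.0576 and 0.0555 against 0.0804 and 0.110) were also higher in both MPA+E libraries, whereas Cdh5 overlapped (0.259 and 0.374 against 0.333 and 0.176) and Pecam1 was at 0 by the rule. Pericyte markers stood at 16.5 and 15.3 CPM against 8.34 and 9.81. Of these only Kcnj8 was lower in both MPA+E libraries (11.0 and 9.90 against 4.90 and 3.37). Notch3 (4.03 and 3.98 against 2.44 and 4.62) and Mcam (1.43 and 1.39 against 1.01 and 1.82) overlapped, and Rgs5 was at 0 by the rule. Muscle markers stood at 4.12 and 4.06 against 3.64 and 3.63, and macrophage markers at 3.40 and 1.93 against 3.48 and 3.96. The part of these cell types was not tested.

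Between hyperplasia and tumour most of the genes differed. In the tumours 32 of the 40 genes were higher and 1 (Pcna) was lower at an adjusted p under 0.05 in limma-voom, where 15.4% of 16302 genes were higher and 13.9% lower. The median log2 fold change was 2.999 over the 40 genes and -0.01 over all genes, and both tumour libraries lay above both hyperplasia libraries for 38 genes (35.4% of all genes). Of the G2/M list 19 of 21 were higher, with a median of 4.44, and of the S list 11 of 15, with a median of 1.61. The 7 genes without a call were Ccne1, Mcm4, Mcm7, Kif11, Hmgb2, Ccnd2 and Ccnd3. Without hyperplasia 1 or without hyperplasia 2, when the lone hyperplasia library is assumed to vary like the other groups, no member was called, and 242 and 314 of all genes were. In these fits the log2 fold change of Mki67 was 7.46 and 4.76. With the mouse as a block, since the libraries of a number came from the same animal, 33 were higher (20.2% of all genes) and 1 lower.

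**Figure D5:**
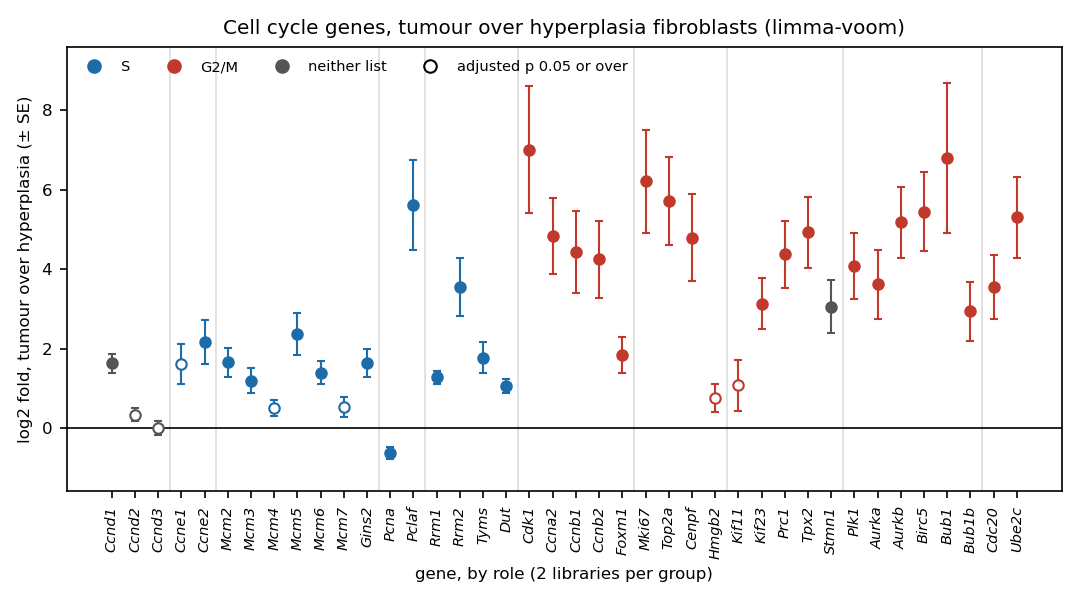
Log2 fold change of each of the 40 genes between tumour and hyperplasia in limma-voom (points with standard errors), by role, with called genes marked. G2/M genes lie between 0.76 (Hmgb2) and 7.01 (Cdk1), helicase genes between 0.50 and 2.37, and Pcna alone is called lower, at -0.63.

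The median log2 fold change was 5.26 over the genes of chromosome structure, 4.63 over mitotic kinases and checkpoint and 4.44 over mitotic entry. Mki67 had 0.920 and 0.138 CPM in hyperplasia 1 and 2 and 18.3 and 35.0 in tumour 1 and 2, so that it differed by 6.21 ± 1.29 on the log2 scale (adjusted p = 0.0199, limma-voom, as are all in this paragraph). Top2a had 1.12 and 0.331 CPM against 23.6 and 40.3 (5.72 ± 1.11, adjusted p = 0.0174). Cdk1, the kinase that starts mitosis, had 0.389 and 0.0552 CPM against 12.3 and 29.8, and its change of 7.01 ± 1.60 was the highest of all members (adjusted p = 0.0245). In hyperplasia 2 this level came from 4 UMIs, so its size is loosely fixed. Ccnb1 had 0.655 and 0.221 CPM against 5.27 and 12.6 (4.44 ± 1.03, adjusted p = 0.0253). The tumour libraries were separated from the hyperplasia libraries by at least 8.04 times within each mouse for each of these genes.

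The spindle, checkpoint and anaphase genes moved with them. Tpx2, which nucleates spindle microtubules, had 0.920 and 0.331 CPM in hyperplasia and 10.9 and 24.7 in tumours (4.93 ± 0.89, adjusted p = 0.0150). Bub1 had 0.230 CPM and 0 UMIs in hyperplasia, and 2.60 and 6.45 CPM in tumours (6.79 ± 1.89, adjusted p = 0.0400), and the lower 95% counting limit of its ratio in mouse 2 was 126. Birc5, the survivin subunit of the chromosomal passenger complex, had 0.832 and 0.442 CPM against 16.1 and 42.6 (5.45 ± 1.00). All 6 genes of mitotic kinases and checkpoint were called higher, as were 4 of 5 spindle genes, all but Kif11. Ube2c had 1.31 and 0.304 CPM against 16.3 and 35.1 (5.31 ± 1.03, adjusted p = 0.0173), and Cdc20, an activator of the same complex, was called too. Stmn1 had 6.14 and 4.64 CPM against 30.5 and 63.2 (3.06 ± 0.66, adjusted p = 0.0219). Kif11 had 3.52 and 3.27 CPM against 5.64 and 9.02 (1.07 ± 0.65, adjusted p = 0.243), and its level outside the counted cells was lower in the tumours, as given above.

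The replication genes had smaller changes and were not uniform. Of the 7 helicase genes, 5 were called: Mcm5 had 0.832 and 1.15 CPM in hyperplasia and 3.54 and 7.61 in tumours (2.37 ± 0.54, adjusted p = 0.0241), and Mcm2 had 1.88 and 2.07 against 4.71 and 8.35 (1.65 ± 0.37, adjusted p = 0.0233), while Mcm4 (0.50 ± 0.20, adjusted p = 0.107) and Mcm7 (0.53 ± 0.26, adjusted p = 0.160) were not. All 4 genes of nucleotide supply were called, with Rrm2 at 1.08 and 0.649 against 6.84 and 13.8 CPM (3.55 ± 0.73, adjusted p = 0.0197). Rrm1 had 18.5 and 19.2 against 45.3 and 45.6 CPM (1.27 ± 0.15, adjusted p = 0.00641), which was the lowest adjusted p of the 40 genes. Of the E-type cyclins, which start S phase, Ccne2 was called (2.16 ± 0.56, adjusted p = 0.0327) and Ccne1 was not (1.61 ± 0.49, adjusted p = 0.0511).

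The clamp genes went opposite ways. Pclaf had 1.08 and 0.318 CPM in hyperplasia and 17.8 and 43.2 in tumours (5.62 ± 1.14, adjusted p = 0.0189). Pcna had 89.8 and 72.6 CPM in hyperplasia and 52.1 and 52.2 in tumours (-0.63 ± 0.16, adjusted p = 0.0310), and the fall was found within both mice, at 0.580 (0.558 to 0.602) and 0.719 (0.691 to 0.748) times. Inside the counted cells of the tumours Pcna reached 174 and 137 CPM, whereas the other cells stood at 94.3 and 75.5 CPM in hyperplasia and 47.1 and 40.4 in the tumours. The Pcna call was lost when any library but tumour 1 was left out, with adjusted p values of 0.0612 to 0.184 in limma-voom and log2 fold changes of -0.79 to -0.47.

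The D-type cyclins did not move together. Ccnd1 had 8.81 and 12.5 CPM in hyperplasia and 31.5 and 33.8 in tumours (1.63 ± 0.23, adjusted p = 0.00885). Most of its UMIs lay outside the cut, where it stood at 30.03 and 35.7 CPM against 7.63 and 8.76. Mki67 was also higher there, at 1.41 and 4.74 CPM against 0.285 and 0.310. Ccnd2 had 137 and 124 CPM against 149 and 181 (0.33 ± 0.16, adjusted p = 0.155), and Ccnd3 had 35.9 and 45.4 against 35.8 and 45.3 (-0.00 ± 0.18, adjusted p = 0.993). Rrm1 was likewise higher outside the cut, at 39.3 and 30.9 CPM against 17.1 and 19.3, and Hmgb2 was lower there, at 29.8 and 33.9 against 54.0 and 42.4.

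Within each mouse, tumour over hyperplasia had a counting interval above 1 for 37 genes in mouse 1 (39.8% of all genes) and 38 in mouse 2 (39.1%), and below 1 for Pcna in both (35.8% and 40.5%). The median ratio was 4.55 in mouse 1 (45 weeks) and 13.6 in mouse 2 (17 weeks). Mki67 was 19.9 times (15.1 to 26.8) and 253 times (138 to 529) higher, so the mice differed in size but not in direction, and hyperplasia 2 was lower and tumour 2 higher than its counterpart. Beside this, summed markers of other cell types differed too, and their part was not tested. The 7 macrophage markers stood at 29.4 and 25.7 CPM in hyperplasia and 8.38 and 12.5 in the tumours, of which Fcgr2b gave 25.6 and 22.7 against 4.89 and 7.33, and Cd68 3.43 and 2.62 against 0.956 and 0.946, while Lyz2 (0.212 and 0.193 against 1.79 and 3.38) and C1qa (0.124 and 0.207 against 0.693 and 0.843) lay the other way and Ptprc was at 0 by the rule. Endothelial markers stood at 5.75 and 12.8 CPM against 2.84 and 3.60, mostly Kdr, with Pecam1 at 0. Keratinocyte markers stood at 59.3 and 150 CPM against 36.4 and 20.4, Schwann markers at 16.5 and 22.7 against 9.89 and 2.10 (mostly Mbp, with Sox10 at 0), pericyte markers at 13.1 and 12.9 against 23.1 and 20.2 (Rgs5 at 0), and epithelial markers at 0.867 and 1.46 against 2.45 and 4.04 (Epcam at 0). In the counted cells of the tumours, fibroblast markers stood at 28270 and 25396 CPM against 29201 and 32062 in the other cells, and epithelial markers at 2 and 4 UMIs in all.

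Hyperplasia was also compared with normal fibroblasts, the puberty and adult libraries as 1 group, in the same fit, so this comparison shares its hyperplasia libraries with the previous one. It also crosses strain, sort and age, whose parts cannot be told apart, and the normal group joins libraries that differed 4.62 times in Mki67. No gene was called higher (background 7.70%) and 2 were called lower (6.29%), with 17 of 40 at an unadjusted p under 0.05, 1 higher and 16 lower, against 35.0% of all genes. Both hyperplasia libraries lay below puberty and adult for 30 genes (33.6% of all genes), and the median log2 fold change was -1.31. Beside this, macrophage markers stood at 5.19 and 3.86 CPM in puberty and adult and at 29.4 and 25.7 in hyperplasia (mostly Fcgr2b), endothelial markers at 23.1 and 27.1 against 5.75 and 12.8, muscle markers at 7.82 and 4.44 against 0.726 and 1.33, and epithelial markers at 2.54 and 1.61 against 0.867 and 1.46. Their part was not tested. Mcm6, a helicase subunit, had 12.8 and 12.9 CPM in puberty and adult and 3.86 and 3.85 in hyperplasia (-1.77 ± 0.29, adjusted p = 0.0220, limma-voom). Ccnd2 had 192 and 228 CPM against 137 and 124 (-0.72 ± 0.16, adjusted p = 0.0389). Leaving out puberty, the adult or either hyperplasia library ended both calls, with adjusted p values of 0.0975 to 0.162 for Mcm6 and 0.163 to 0.193 for Ccnd2, and the log2 fold change of Mcm6 then stayed between -1.79 and -1.74.

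The count of calls depended on the tool and the libraries. DESeq2 called 22 members lower (12.2% of all genes) and 1, Pcna, higher (12.4%), and edgeR called 7 lower (6.93%). With the tumour libraries left out of the fit, 14 were lower and 1 higher, where 15.4% of 15582 genes were called in each direction. Mki67 (11.0 and 2.37 CPM against 0.920 and 0.138) stood at -3.78 ± 1.35 on the log2 scale (adjusted p = 0.102), Top2a at -3.47 ± 1.15 (adjusted p = 0.0869) and Ccnb1 at -1.99 ± 1.16 (adjusted p = 0.264). Mcm2 stood at -1.34 ± 0.39 (adjusted p = 0.0658), Mcm5 at -2.11 ± 0.56 (adjusted p = 0.0541), Rrm2 at -1.17 ± 0.85 (adjusted p = 0.363) and Stmn1 at -1.88 ± 0.67 (adjusted p = 0.102), all from limma-voom. Each of these had both hyperplasia libraries below both normal libraries except Rrm2. Pcna stood the other way, with 53.4 and 53.1 CPM in normal and 89.8 and 72.6 in hyperplasia (0.57 ± 0.16, adjusted p = 0.0601), and Ccnd1 and Ccnd3 stood at -0.75 ± 0.24 (adjusted p = 0.0792) and -0.59 ± 0.18 (adjusted p = 0.0700). Mcm6 was low in cells outside the cut too, at 4.16 and 3.54 CPM in hyperplasia against 10.4 and 12.7.

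Other cell cycle genes, from lists of 30 further S genes, 34 further G2/M genes and 13 regulators, were read in the same fits. In the tumours 29 of the 34 further G2/M genes were higher and 0 lower (15.4% and 13.9% of all genes), with a median log2 fold change of 3.39. Among them Hmmr, a spindle protein, had 0.336 and 0.0276 CPM in hyperplasia and 7.83 and 23.6 in tumours (7.06 ± 1.69, adjusted p = 0.0271, limma-voom). Its level in hyperplasia 2 lay under the floor of 3 UMIs (0.0414 CPM), so the size of its change is loosely fixed. Of the 30 further S genes 10 were higher and 3 lower, with a median of 0.66. The 3 were Slbp, which binds histone mRNA (83.9 and 79.3 against 41.2 and 42.5 CPM, -0.96 ± 0.13), Nasp, a histone chaperone (86.5 and 72.4 against 35.5 and 46.7 CPM, -0.96 ± 0.18), and Pola1, of DNA polymerase alpha (-0.59 ± 0.15). Of the regulators E2f1, E2f3, Mybl2, Cdk4 and Cdk6 were higher, and Cdk6, a kinase partner of the D-type cyclins, had 7.56 and 7.37 against 28.4 and 36.3 CPM (2.11 ± 0.17, adjusted p = 0.00256). Under MPA+E, 0 of the 30 further S genes and 0 of the 34 further G2/M genes were called in edgeR (4.33% of all genes), and E2f7, a repressor of E2F targets, was the 1 regulator called, with 5.14 and 5.06 CPM in placebo and 1.06 and 1.42 in MPA+E (-2.03 ± 0.22, adjusted p = 0.0161). Between hyperplasia and normal, Rfc2, Hjurp and Cks1b were lower (6.29% of all genes), and Tmpo, Cdk2, Cdk6, Rb1 and Rbl2 were higher (7.70%).

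Some of these levels carry a mapping doubt. Pcna, Tyms, Ccnb1, Ccnb2, Ccnd3 and Stmn1 have processed or related copies in RefSeq that had no entry of their own in the count tables. Foxm1 shares exon positions on the same strand with other annotated genes, and Mcm7, Top2a and Stmn1 do so with small RNA genes.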

How the data were processed

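Per the labels, the authors made libraries with a 10x 3′ kit and deposited unnormalised UMI counts per gene and cell; Cell Ranger 6.1.2 and mm10 are named in the submitters' processing notes. The 13 filtered matrices hold 32285 genes. Cells with 500 to 7500 genes, at most 10% mitochondrial UMIs and the fibroblast rule were kept. Doublets were not removed in the main analysis, and scanpy 1.11.5 (Scrublet) was the alternative. UMIs were summed per library and scaled to CPM. MPA+E was tested with edgeR 4.0.16 (quasi-likelihood, TMM, filterByExpr), and tumour over hyperplasia and hyperplasia over normal with limma 3.58.1 (voom, 1 fit of 6 libraries), all with Benjamini-Hochberg adjustment over all genes and a threshold of 0.05; DESeq2 1.42.0, other filters, gates and left-out libraries were alternatives. The fits were checked on simulated counts with 100 genes changed by 1 and 100 by 2 on the log2 scale. Of the changes of 1, limma-voom recovered 19% (tumour over hyperplasia) and 14% (hyperplasia over normal), and edgeR 86% (MPA+E). Of the changes of 2, they recovered 94%, 97% and 100%. False calls numbered 10, 10 and 32. The changed genes were drawn only from those above a minimum mean level, so these shares need not hold for members at lower levels. A member without a call in the limma-voom fits may thus have changed by 1 or by more. Between hyperplasia and normal, for example, Mki67 had no call at -3.78 ± 1.35. Hyperplasia and tumour libraries of a number come from the same mouse, which pairs them (correlation of deviations 0.0954 over 16001 genes); the replicate block called 34 members. Intervals and floors (3 UMIs) cover counting error only. All 40 genes could be named; of called genes, those with the largest change in each role got full statistics, with Mki67, Top2a, Ccnb1, Mcm2, Mcm5, Pcna, Rrm2, the D-type cyclins and Stmn1 in every comparison. Members and lists were chosen with earlier results of these data known.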

Additional observations from a re-analysis of the deposited data

How the results depend on the processing

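Of the summary results under all alternatives, 151 stayed within their spread or on the same side of the threshold, 58 moved and 8 changed sign, and of the values of single members 733 kept direction and side, 83 lost the threshold, 36 gained it and 31 changed sign. In every case below the cause was not tested unless the construction of the alternative gives it. Depth limits the low members: in lactation and hyperplasia several G2/M genes rest on fewer than 10 UMIs, and with 1 library per stage no spread between animals is known.

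The S to G2/M ratio of puberty minus adult was -1.48 with the fibroblast rule at 100 per 10000, -1.19 without high Scrublet scores and -1.45 without Hmgb2, Dut and Pcna. For pregnancy it was -1.41 with the stricter rule and -1.45 without the 3 genes, for lactation -0.42 and 1.31, and for involution -0.64 and 0.12, or -0.36 with cells holding another marker kept. Without the 3 genes tumour minus hyperplasia was -2.62 and hyperplasia minus normal 1.499. Leaving out each library, the latter ran from -0.0601 to 1.205, and MPA+E minus placebo from -0.34 to 0.0587.

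The summed G2/M level over adult was, with the stricter rule, 3.38, 2.37, 1.19 and 1.38 (puberty, pregnancy, lactation, involution). Without Hmgb2 it was 3.71, 2.77, 0.326 and 0.742. With cells holding another marker kept it was 0.918 in lactation and 1.12 in involution, and in puberty it was 2.73 at a mitochondrial limit of 5% and 2.69 without high Scrublet scores. The summed S level over adult without Dut and Pcna was 1.36, 1.01, 0.808 and 0.808 in the same order, and 0.853 in pregnancy without high Scrublet scores. With a cut of 2 genes, the share of counted cells over adult was 0.847 in lactation and 1.02 in involution, and MPA+E minus placebo was 0.170 points, against 0.133 with 5 genes and 0.142 with thinning to 2000 UMIs.

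In the hormone comparison edgeR called 678 genes, DESeq2 1358 and the fits without a library 22 to 900. Placebo and MPA+E libraries share only a number; their deviations correlated at 0.396 over 15642 genes, and the fit with a replicate block called 2451 genes and 1 member, Ccnd1, while fits without a library called 0 to 1 members. Values of Mki67 near 0 changed sign: 0.34 with the stricter rule, 0.0234 without high Scrublet scores, 0.0445 in limma-voom, 0.0923 at the 5% limit, 0.0139 without a filter, 0.0377 with the replicate block, and -0.34 to 0.44 without a library. Rrm2 was 0.0574 with the stricter rule, Pcna 0.00688 without a filter, and Stmn1 0.13 with the stricter rule, 0.0158 at the 5% limit and 0.00465 without a filter. Without a library each, Ccnb1 ran from -0.21 to 0.93, Mcm5 from -0.0433 to 0.30, Pcna from -0.0934 to 0.0648, Rrm2 from -0.40 to 0.14, Stmn1 from -0.13 to 0.0949 and Top2a from -0.35 to 0.63.

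In tumour over hyperplasia 4777 genes were called, and 242 to 7120 without a library; members called ran from 0 to 37. Ccnd3 was 0.00183 in DESeq2, 0.00256 with its size factors, 0.0218 with the stricter rule and 0.0213 without a filter, and -0.17 to 0.16 without a library. With the mouse as the replicate block 6089 genes and 34 members were called. In hyperplasia over normal 2280 genes were called, against 4017 by DESeq2, 4810 in a fit of 4 libraries and 1 to 4810 without a library. Members called were 2, against 23 by DESeq2, 7 by edgeR, 4 without a filter, 15 in a fit of 4 libraries and 0 to 17 without a library.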

Other observations

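The cells that held 3 or more G2/M genes were also read for marker lists of fibroblast states, which hold no cell cycle gene. These are values over pooled cells of 1 library each, with no test. The extracellular matrix remodelling list summed to 3553 and 3153 CPM in these cells of tumour 1 and 2, against 7380 and 11533 in the other fibroblasts, and to 406 against 1077 in puberty, 983 against 1609 in pregnancy and 737 against 985 in the adult. The lobular list was lower in the counted cells of the tumours (749 against 1434 and 438 against 1182 CPM), puberty (578 against 1206), pregnancy (586 against 1171) and the adult (525 against 1447), and higher in those of MPA+E 1 and 2 (1420 against 1166 and 763 against 600 CPM, in 23 and 45 cells). The preadipocyte list was higher in the counted cells of puberty (1775 against 1068 CPM) and of both placebo libraries (1548 against 1138 and 1923 against 1043, in 14 and 13 cells). It was lower in those of the adult, also of 9 weeks (535 against 974, in 33 cells), and of MPA+E (507 against 773 and 541 against 702). It was lower too in pregnancy (811 against 1236), involution (317 against 1228, in 21 cells) and the tumours (434 against 625 and 269 against 325). Lactation (1000 against 1287) and hyperplasia 1 (400 against 1413) were also lower, in 3 and 5 cells. The myofibroblastic list was higher in puberty (283 against 116) and placebo (500 against 168 and 333 against 156, from 21 and 13 UMIs). It was higher too in MPA+E (420 against 146 and 378 against 178). It was lower in pregnancy (283 against 308) and involution (47.6 against 113.3, in 21 cells). The tumours were also lower (1024 against 1690 and 2774 against 3059). It differed little in the adult and hyperplasia 1 (5 cells), and was higher in lactation (3 cells). The progenitor list was higher in involution and hyperplasia 1 and lower in the other libraries with counted cells. The adipogenesis-regulatory list was higher in pregnancy, lactation, involution and hyperplasia 1 and lower in the others. The counted cells had more UMIs than the others, and the part of depth in these differences was not tested.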
